A study of Mus musculus with 73 samples.

Results

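The genes described here are the 8 scaffolds of the hair cell ribbon and active zone, Ctbp2, Bsn, Pclo, Rims1, Rims2, Erc1, Erc2 and Rimbp2, chosen by name out of 55291 gene rows. They were chosen with earlier results of these data known, and all 8 have a row in the count table. They were measured in 73 single cells of the mouse cochlea at postnatal day 14, picked by hand and labelled as Casz1-null inner hair cells. The animals were Atoh1Cre/+ and Casz1flox/flox, so that Cre made where Atoh1 is or was active, in developing hair cells of both types, deletes Casz1. The same Cre opens the green reporter Rosa26-CAG-Loxp-stop-Loxp-3xGFP(Ai47). The red reporter Rosa26-CAG-Frt-stop-Frt-tdTomato is opened by Fgf8-Flpo/+, which is active in inner hair cells, and only cells positive for both reporters were collected. All cells form 1 group and no animal is named. Wild-type cells were not analysed here. The 73 cells therefore count as 1 sample, every value describes these libraries, and no p-value was computed. Nothing below compares the null cells with normal cells.

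Inner hair cells signal to the auditory nerve through ribbon synapses, in which an electron-dense ribbon holds vesicles near clustered calcium channels at the active zone. The ribbon is built mainly from Ribeye, a product of Ctbp2. Bassoon (Bsn) anchors the ribbon to the membrane, and a short form of Piccolo (Pclo) sits on it. RIM proteins (Rims1, Rims2) and RIM-binding protein 2 (Rimbp2) link vesicles and calcium channels, and the ELKS proteins (Erc1, Erc2) bind RIMs and other active zone scaffolds. Slc26a5 is the gene of prestin, which drives the length changes of outer hair cells, and Atp2a3 encodes a calcium pump of the endoplasmic reticulum that is enriched in inner hair cells. Both serve here as markers of how far a cell carries outer or inner hair cell transcripts.

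The libraries held 11027945 to 37183702 counts. Levels are given in CPM, counts scaled to a common library total. Detection means 10 CPM or more, or 110 to 372 counts depending on the library. Of the general hair cell markers, all 12 passed in at least 37 cells, and 10 did so in every cell. The inner hair cell list had 10 of 12 markers in at least 37 cells. The outer hair cell list had 7 of 12. Those that fell short were Chrna10 (31 cells), Lbh (20), Ikzf2 (6), Bcl11b (1) and Insm1 (0). The cells thus carry transcripts from part of each list. Without wild-type cells, it cannot be told which of the outer hair cell transcripts are usual in inner hair cells. The mitochondrial share of counts ran from 1.81% to 13.0% and the ribosomal protein share from 1.16% to 2.68%. Library 5 stood apart with 6347 CPM summed over 7 immune markers, against at most 307 CPM in the 71 libraries other than 5 and 67. Library 67 stood apart with 1167 CPM over 7 supporting cell markers, against at most 281 CPM in those 71. Correlations without both libraries are given below.

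The Ctbp2 row pools distinct proteins, which matters for reading its level. In mm10, Ctbp2 occupies bases 132987563 to 133124354 of chromosome 7 (minus strand), with 20 transcripts in GENCODE vM21. Transcript Ctbp2-201 encodes 445 codons, the widely expressed transcriptional corepressor. Transcript Ctbp2-214 encodes 988 codons from a start inside the gene, and 1687 of its coding bases are not coding in Ctbp2-201. This long form has the layout known for Ribeye, a unique first part joined to the Ctbp2 body. Of its 3604 exon bases, 199 lie in no other annotated transcript of the gene. The deposited counts are per gene and do not tell the forms apart, so the Ctbp2 values below are no measure of Ribeye alone.

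RefSeq (GRCm38.p6) lists promoter windows of 300 bases, 250 before to 50 after a start, for 7 of the 8 genes, with 2 windows for Ctbp2. Rims2 has none in that table. The windows of Ctbp2 are shown because RefSeq places separate starts of the gene there, and that of Erc2 because it had the lowest correlation with Slc26a5 of the 8 genes. They are written 5′ to 3′ on the coding strand, with capitals marking any GC box (GGGCGG or its reverse complement CCGCCC) or TATA box (TATAAA or TTTATA).
Ctbp2 internal start, chr7:133015198-133015497, minus strand: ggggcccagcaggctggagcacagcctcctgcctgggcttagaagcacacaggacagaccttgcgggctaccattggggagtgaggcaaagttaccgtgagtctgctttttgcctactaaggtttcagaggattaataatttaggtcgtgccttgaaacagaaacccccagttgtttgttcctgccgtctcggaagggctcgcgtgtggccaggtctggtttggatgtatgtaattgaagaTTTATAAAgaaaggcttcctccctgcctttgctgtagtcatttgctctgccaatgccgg
Ctbp2 upstream start, chr7:133081811-133082110, minus strand: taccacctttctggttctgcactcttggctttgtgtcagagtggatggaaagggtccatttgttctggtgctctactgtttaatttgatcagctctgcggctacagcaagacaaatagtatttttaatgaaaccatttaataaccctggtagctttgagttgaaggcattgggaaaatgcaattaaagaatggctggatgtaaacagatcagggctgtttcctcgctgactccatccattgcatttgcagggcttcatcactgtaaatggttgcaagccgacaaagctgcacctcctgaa
Erc2 start, chr14:27622157-27622456, plus strand: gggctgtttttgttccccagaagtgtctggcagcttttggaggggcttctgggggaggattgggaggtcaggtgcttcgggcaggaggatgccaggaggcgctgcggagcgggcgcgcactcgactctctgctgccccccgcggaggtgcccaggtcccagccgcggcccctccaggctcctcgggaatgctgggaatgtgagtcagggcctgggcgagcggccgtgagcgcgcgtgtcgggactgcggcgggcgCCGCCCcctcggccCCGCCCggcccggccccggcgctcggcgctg

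The start site in the internal Ctbp2 window lies 1 base from the annotated start of Ctbp2-214. The internal window holds both strand versions of the TATA letters in 1 overlapping run, at positions -9 to -2 from the start, whereas 13.6% of the 32851 RefSeq promoter windows hold either. The start site in the upstream Ctbp2 window lies 29931 bases from the nearest GENCODE start, that of Ctbp2-202, and so matches no transcript of that annotation. This upstream window has neither motif and 3 CG dinucleotides, and the internal one has 8. The Erc2 window has 2 GC boxes, a motif found in 35.7% of all windows, and 31 CG dinucleotides against a median of 7 over all windows. This is not particular to Erc2. GC boxes and CG dinucleotides numbered 4 and 35 for Pclo, 3 and 26 for Rims1, and 2 and 46 for Erc1. They numbered 0 and 38 for Bsn, and 0 and 7 for Rimbp2. Matches are descriptions of the letters and say nothing about binding.

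Ctbp2 was the most widely detected scaffold at the 10 CPM threshold. Its lowest, median and highest levels were 0, 82.4 and 288 CPM, and it was detected in 67 of 73 cells (91.8%, exact 95% interval 83.0 to 96.9). A single cell (1 of 73) had no Ctbp2 read, and the quartiles were 44.3 and 140 CPM (coefficient of variation 0.706). Its lead depended on the threshold. Ctbp2 and Rims2 each had a read in 72 cells, and 100 CPM was reached in 41 cells by Rims2, 35 by Erc2 and 29 by Ctbp2. Intervals on shares of cells treat the 73 cells as independent draws. They cover the sampling of cells only, and no spread between animals.

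The giant scaffolds Bsn and Pclo were patchy. Bsn (chromosome 9, 108096022 to 108190384, minus strand) had a lowest, median and highest level of 0, 0 and 144 CPM. It reached the threshold in 16 cells (21.9%, interval 13.1 to 33.1), while 39 cells held no Bsn read. In those 16 cells its median was 68.9 CPM, so Bsn was read well in a minority of libraries. Pclo (chromosome 5, 14514918 to 14863459, plus strand) ran from 0 through a median of 13.8 to 200 CPM. It was detected in 40 cells (54.8%, interval 42.7 to 66.5), with 11 cells at 0 and another 22 between 0 and 10 CPM. Both were detected in 11 cells, Pclo alone in 29, Bsn alone in 5 and neither in 28.

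Between Rims1 and Rims2, Rims2 carried nearly all the reads. Rims2 (chromosome 15, 39198261 to 39684372, plus strand) ran from 0 through a median of 126 to 656 CPM with detection in 61 cells (83.6%, interval 73.0 to 91.2). Its spread was wide, with quartiles of 42.03 and 300.3 CPM. Rims1 (chromosome 1, 22286251 to 22805994, minus strand) had no read in 70 cells. The 3 cells with reads held 4, 16 and 242 counts, or 0.211, 1.27 and 19.1 CPM. Rims1 was thus detected in 1 cell (1.37%, interval 0.0347 to 7.40). Per kilobase of merged exons Rims2 was above Rims1 in 72 cells and equal, at 0, in 1.

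The ELKS genes were both present, and unequal. Erc2 (chromosome 14, 27622428 to 28478537, plus strand) ran from 0 through a median of 97.9 to 604 CPM with detection in 58 cells (79.5%, interval 68.4 to 88.0). Its cells split at the threshold: 15 cells had at most 1.69 CPM, and the next cell had 11.2 CPM. Erc1 (chromosome 6, 119570796 to 119848167, minus strand) ran from 0 through a median of 13.6 to 256 CPM, passed the threshold in 40 cells and had no read in 19. Both were detected in 35 cells, Erc2 alone in 23, Erc1 alone in 5 and neither in 10. Per kilobase of merged exons, Erc2 was higher in 55 cells and Erc1 in 16. Of the merged exon bases of Erc1, 11.8% also lie in the antisense gene Gm44317. No source says that reads were counted by strand, so Erc1 reads there are uncertain. The same holds for 4.12% of Pclo exon bases, and 5.05% of those of Ctbp2 also lie in exons of Fgfr2 on the same strand.

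Rimbp2 (chromosome 5, 128757791 to 128953486, minus strand) ran from 0 through a median of 22.9 to 265 CPM. Detection was in 49 cells (67.1%, interval 55.1 to 77.7), with no read in 10. Its upper quartile was 42.9 CPM, and 7 cells reached 100 CPM.

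**Figure D1:**
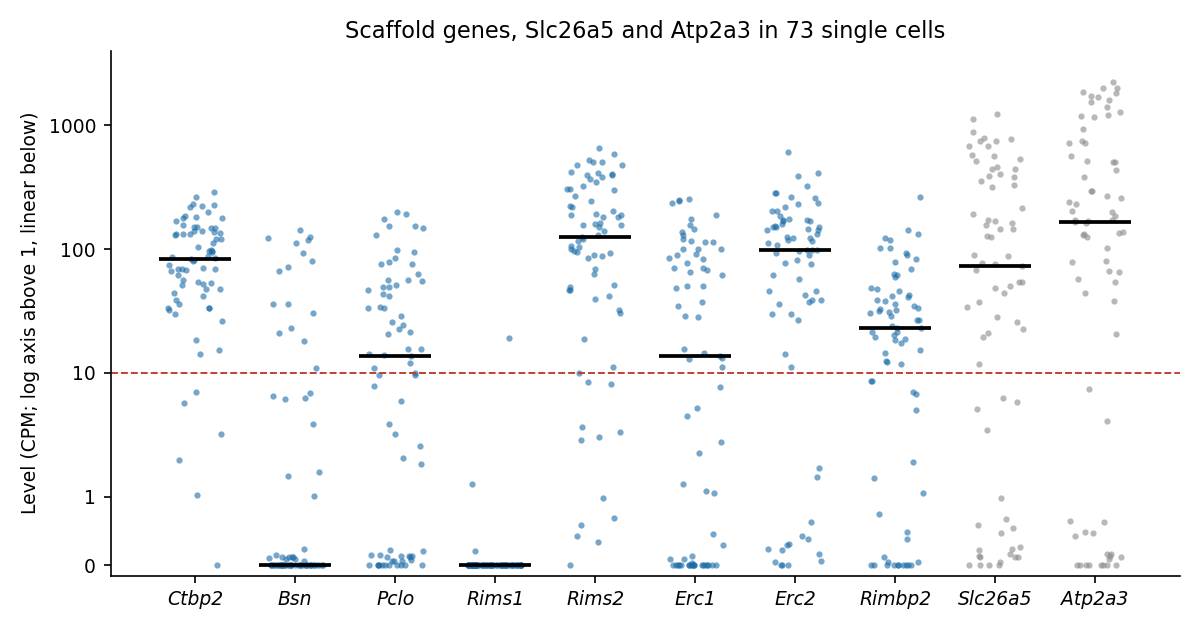
Level in CPM of the 8 scaffold genes (blue) and of Slc26a5 and Atp2a3 (grey) in each of 73 cells, on a log axis above 1 CPM and a linear one below; black bars are medians and the dashed line is the 10 CPM threshold. Ctbp2, Rims2 and Erc2 have medians near 100 CPM, Bsn and Rims1 have medians of 0, and Erc2 shows an empty range between 1.69 and 11.2 CPM.

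Levels can be ranked between genes only per length. In CPM per kilobase of merged exons, the medians were 13.2 for Ctbp2, 12.1 for Rims2, 10.1 for Erc2, 2.88 for Rimbp2, 0.835 for Erc1, 0.613 for Pclo, and 0 for Bsn and Rims1. Ctbp2 and Rims2 did not differ beyond their spread, with Ctbp2 above Rims2 in 35 cells and below it in 38. Erc2 leaned lower than both: Rims2 was above Erc2 in 47 cells and below it in 26, and Ctbp2 was above Erc2 in 45 and below it in 27. Erc2 was above Rimbp2, the fourth gene, in 52 cells and below it in 20. Divided by the longest transcript, the order changed only in that Rims2 (26.2) passed Ctbp2 (22.9). The cDNA was full length in design, but Bsn and Pclo have transcripts of up to 15938 and 20084 bases, and how evenly such long transcripts were covered cannot be seen in counts per gene.

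No cell held the whole set of 8 at 10 CPM. A median of 5 of the 8 genes was detected per cell (range 1 to 7), with 23 cells at 5, 20 at 4 and 6 at 7. Ctbp2, Rims2 and Erc2 were all detected in 44 cells, exactly 2 of them in 25 and 1 of them in 4. No cell (0 of 73) lacked all of these 3. The summed level of the 8 genes ran from 31.98 CPM through a median of 430 to 1626 CPM.

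Most pairs of scaffolds had weak correlations over the cells. Over the 28 pairs of genes the median rank correlation (Spearman rho, 73 cells) was 0.0995, and 21 pairs were positive. Over all 37139271 pairs of the 8619 genes averaging at least 10 CPM, the median was 0.00436 and 51.4% were positive. Of the members, 7 passed that mean and Rims1 did not. Without Rims1 the median over 21 pairs was 0.1002, and 17 of the 21 were positive. All points share library, depth and amplification, and the correlations describe these cells only.

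Rims2 and Erc2 formed the closest pair, at 0.407, and were detected together in 49 cells. Corrected for the mitochondrial share of counts their correlation was 0.293, and on log2(CPM + 1) Pearson's r was 0.246. Next came Rims2 with Pclo at 0.270 (0.234 corrected), Erc2 with Rimbp2 at 0.247 (0.174 corrected) and Rims2 with Erc1 at 0.237 (0.235 corrected). The lowest was Bsn with Erc1 at -0.167. Ctbp2 lay between -0.117 (with Rimbp2) and 0.0337 (with Rims2), so no scaffold had more than a weak correlation with the gene of the ribbon body. Weak correlations in counts with many zeros are values only and no finding.

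**Figure D2:**
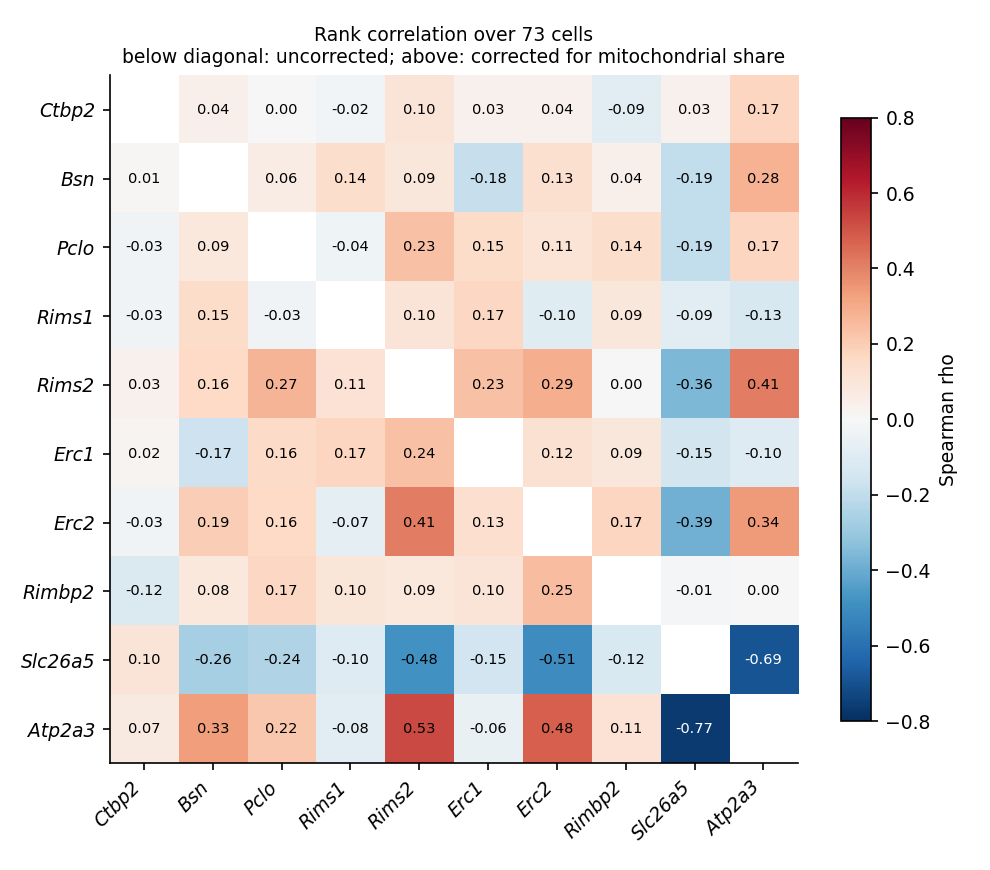
Spearman correlation over 73 cells between the 8 scaffold genes, Slc26a5 and Atp2a3, uncorrected below the diagonal and corrected for the mitochondrial share of counts above it. Among the scaffolds the Rims2 and Erc2 cell is the darkest (0.41, and 0.29 corrected), the Ctbp2 row and column are pale, and the Slc26a5 and Atp2a3 rows have opposite colours for Rims2 and Erc2.

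Rims2 and Erc2 tended to be lower in cells with more prestin transcript, and Ctbp2 had no such direction. Erc2 had a rank correlation of -0.506 with Slc26a5 and Rims2 of -0.483. Bsn stood at -0.264, Pclo at -0.238, Erc1 at -0.154, Rimbp2 at -0.124, Rims1 at -0.101 and Ctbp2 at 0.101. Over the 7 genes with a mean of 10 CPM the median was -0.238, against -0.0304 for all 8618 genes compared. At -0.5 or lower stood 1 of these 7 genes, against 0.87% of all genes, and at -0.3 or lower 2 of 7, against 6.8% of all genes. None of the 7 reached 0.3 (6.17% of all genes did) or 0.5 (1.35%). With genes averaging 1 CPM as the comparison, 0.513% stood at -0.5 or lower and 0.851% at 0.5 or higher. The genes at -0.3 or lower are Erc2 and Rims2, whose values with Slc26a5 were known when the set was chosen. These counts, here and after the corrections below, therefore describe the set and are no sign of enrichment.

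With Atp2a3 the signs of Rims2 and Erc2 were opposite. Rims2 had a rank correlation of 0.527, Erc2 of 0.476 and Bsn of 0.334. Pclo stood at 0.219, Rimbp2 at 0.113, Ctbp2 at 0.0723, Erc1 at -0.0589 and Rims1 at -0.0847. The median over the 7 genes was 0.219, against 0.0198 over all genes. At 0.5 or higher stood 1 of 7 genes, against 0.847% of all genes, and at 0.3 or higher 3 of 7, against 7.12%. None stood at -0.3 or lower (6.52% of all genes did) or at -0.5 or lower (1.65%). Over genes averaging 1 CPM, 0.52% stood at 0.5 or higher and 1.02% at -0.5 or lower. Slc26a5 and Atp2a3 are themselves correlated at -0.766 (-0.689 corrected for the mitochondrial share), so the comparisons with them are not independent of each other. The counts with Atp2a3 are for that reason descriptions of the chosen set too.

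**Figure D3:**
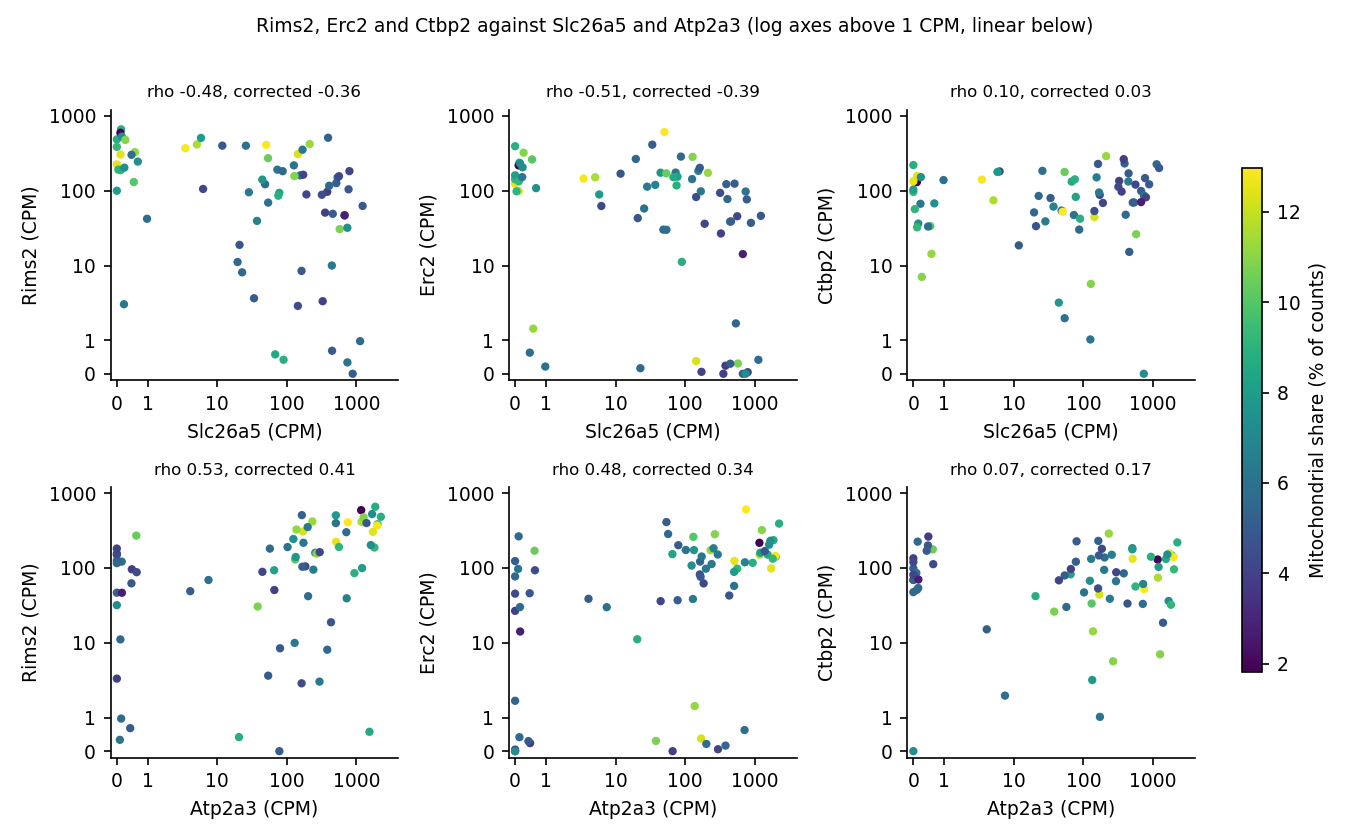
Rims2, Erc2 and Ctbp2 (vertical axes, CPM) against Slc26a5 (top row) and Atp2a3 (bottom row) in 73 cells, coloured by the mitochondrial share of counts, with log axes above 1 CPM. Rims2 and Erc2 tend down in the top row (rho -0.48 and -0.51) and up in the bottom row (0.53 and 0.48), and Ctbp2 is flat in both rows (rho 0.10 and 0.07).

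Correction for the mitochondrial share made the values of Rims2, Erc2, Bsn and Pclo smaller in size without turning their signs. With Slc26a5, Erc2 then stood at -0.387, Rims2 at -0.360, Bsn and Pclo at -0.194, and Rimbp2 at -0.0143. Rimbp2 lost its direction with Atp2a3 as well (-0.0041). No scaffold reached -0.5, against 0.337% of all genes, and 2 of 7 reached -0.3, against 4.54%. None reached 0.3 or 0.5, against 3.61% and 0.464% of all genes. With Atp2a3, Rims2 stood at 0.411, Erc2 at 0.343 and Bsn at 0.276. None reached 0.5 (0.383% of all genes did), and 2 of 7 reached 0.3, against 4.19%. None reached -0.3 or -0.5, against 3.93% and 0.673%. Ctbp2 was at 0.0314 with Slc26a5 and 0.175 with Atp2a3.

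Properties of the libraries moved with Rims2 and Erc2 too. The mitochondrial share correlated at 0.399 with Rims2 and 0.405 with Erc2, and at -0.151 with Ctbp2. It correlated at -0.488 with Slc26a5 and 0.508 with Atp2a3. Total counts correlated at -0.311 with Rims2 and -0.395 with Erc2, and at 0.273 with Slc26a5 and -0.352 with Atp2a3. The ribosomal protein share correlated at -0.537 with Erc2, -0.407 with Pclo, -0.383 with Rims2 and -0.332 with Rimbp2. With Slc26a5 that share correlated at 0.653, and with Atp2a3 at -0.659. Corrected for that share, Erc2 stood at -0.244 with Slc26a5 and 0.193 with Atp2a3, Rims2 at -0.333 and 0.395, and Pclo at 0.0405 and -0.0722. The part of these properties in the correlations was not tested beyond these corrections.

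Neurons also express active zone scaffolds, so their markers were set beside these values. Of 10 neuronal markers, Map2 was detected in 72 cells and carried most of the summed level (16.5 to 547 CPM, median 206). Syn1 was detected in 18 cells, Tubb3 in 9, and Prph, Syn2, Stmn2 and Gap43 in none. Among 7 glial markers, Cnp was detected in 29 cells and Sox10 in 27, and the summed level ran from 0 to 498 CPM. The sum of both lists correlated at 0.0712 with Rims2 and -0.0804 with Erc2. The neuronal markers without Map2 correlated at 0.166 with Rims2, 0.238 with Erc2 and 0.293 with Rimbp2. Without the 18 cells highest in the sum of both lists, Rims2 stood at -0.545 and Erc2 at -0.522 with Slc26a5. Map2 is part of that sum, so this subset does not single out cells with the other neuronal markers. The markers without Map2 were used for no subset or correction. Without libraries 5 and 67 they stood at -0.484 and -0.519 with Slc26a5, and at 0.519 and 0.474 with Atp2a3.

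**Figure D4:**
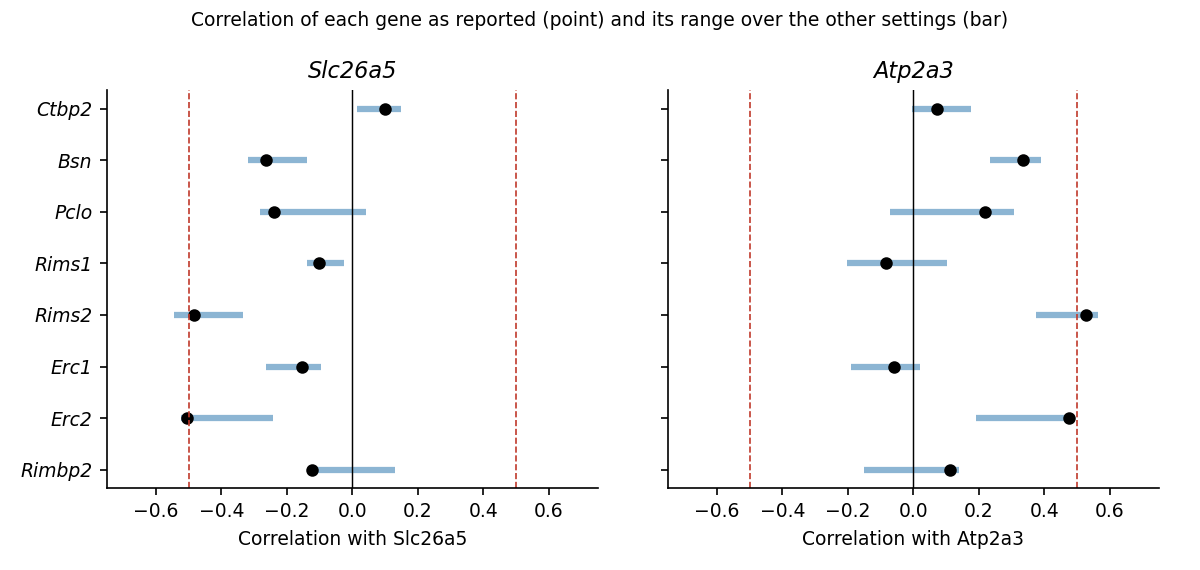
Correlation of each scaffold gene with Slc26a5 (left) and Atp2a3 (right), as points for the values in the text and bars for the lowest to highest value over 13 other settings, with dashed lines at 0.5 in size. The bars of Rims2 and Erc2 stay on one side of 0 in both panels, and those of Pclo and Rimbp2 cross it in both. The bars of Ctbp2, Rims1 and Erc1 cross 0 in the Atp2a3 panel.

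The outer hair cell genes, Slc26a5 among them, were mostly negative with Rims2 and Erc2. Of 9 outer hair cell genes with a mean of 10 CPM, Slc26a5 included, 8 had a negative correlation with Rims2 (median -0.400) and 8 with Erc2 (median -0.334). Corrected for the mitochondrial share, these medians were -0.330 and -0.260. Ocm, a calcium buffer abundant in outer hair cells, was the lowest for Rims2 (-0.572, and -0.478 corrected for the mitochondrial share). Sri, a calcium-binding protein, was the lowest for Erc2 (-0.617, and -0.509 corrected). Of 11 inner hair cell genes, Atp2a3 included, 9 were positive with Rims2 (median 0.212) and 9 with Erc2 (median 0.272). Corrected for the mitochondrial share, the inner hair cell medians were 0.0720 and 0.129. Over all pairs of genes averaging at least 10 CPM, 51.4% were positive. At -0.3 or lower stood 6 of 9 outer hair cell genes with Rims2 (3.52% of all genes) and 6 with Erc2 (3.69%). At 0.3 or higher stood 3 of 11 inner hair cell genes with Rims2 (3.06% of all genes) and 2 with Erc2 (3.55%). Against this direction, 2 of the 11 inner hair cell genes stood at -0.3 or lower with Rims2, and 2 with Erc2 (again beside 3.52% and 3.69%). The lowest were Fgf8 with Rims2 (-0.422) and Rprm with Erc2 (-0.334). For Ctbp2 the medians were -0.116 with the inner and 0.0776 with the outer hair cell list. General hair cell genes had medians of 0.00239 with Rims2 and 0.0702 with Erc2. Rims2 and Erc2 were chosen with their values with Slc26a5 known, and the lists hold Slc26a5 and Atp2a3 themselves. The counts over these lists are therefore descriptions and no separate support.

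Other genes of the active zone were described from a list of 26, of which 16 averaged at least 10 CPM. Otof, the calcium sensor of release, Slc17a8, the vesicular glutamate transporter, Cabp2, a calcium channel modulator, Cacna1d, the pore of the Cav1.3 channel, and the adaptor Apba1 were detected in all 73 cells. Rab3a, a vesicle GTPase bound by RIM, was detected in 72. Of the short RIM genes, Rims3 was detected in 43 cells and Rims4 in 0 of 73 (exact 95% upper limit 4.93%). Rims4 had a read in 2 cells, with at most 7 counts. Unc13a, a vesicle priming factor, was detected in 25 cells, Unc13b in 2 and Unc13c in 0. Tspoap1, the relative of Rimbp2, was detected in 11, and Ctbp1, the relative of Ctbp2 with no ribbon form, in 62.

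With Slc26a5, 14 of these 16 genes had negative correlations (median -0.288, against -0.0304 over all genes). With Atp2a3, 13 had positive ones (median 0.274, against 0.0198 over all genes). At -0.3 or lower with Slc26a5 stood 7 of 16, against 6.8% of all genes, and at -0.5 or lower 1, against 0.87%. Corrected for the mitochondrial share, 3 stood at -0.3 or lower, against 4.54% of all genes, and none at -0.5, against 0.337%. This list was also chosen with earlier results of these data known, so its counts are descriptions. The lowest was Apba1, at -0.549 with Slc26a5 and 0.507 with Atp2a3, and -0.424 and 0.364 corrected. The calcium channel genes Cacna1d (0.134 with Slc26a5) and Cacnb2 (0.0636) did not share this direction, and Cacna1d stood at -0.297 with Rims2. Of these genes the closest to a scaffold was Otof with Rimbp2, at 0.411 (0.353 corrected).

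Few genes of the 8618 compared reached 0.5 in size with a scaffold. At 0.5 or higher stood 11 genes with Erc2 (0.128% of 8618), 8 with Rims2 (0.0928%) and 1 with Rimbp2 (0.0116%), and none with Ctbp2, Bsn, Pclo or Erc1. At -0.5 or lower stood 35 genes with Erc2 (0.406%) and 11 with Rims2 (0.128%). Corrected for the mitochondrial share, Erc2 had 1 and 4 genes past 0.5 and -0.5 (0.0116% and 0.0464%), and Rims2 had 0 and 1. At 0.3 or higher stood 3.55% of genes with Erc2, 3.06% with Rims2, 1.26% with Rimbp2, 0.963% with Bsn, 0.847% with Erc1, 0.824% with Pclo and 0.302% with Ctbp2. At -0.3 or lower the shares were 3.69% for Erc2, 3.52% for Rims2, 1.14% for Pclo, 1.11% for Rimbp2, 0.94% for Bsn, 0.464% for Ctbp2 and 0.371% for Erc1. The named genes closest to Erc2 were Pdcd6 (0.591), Aif1l (0.559) and Id3 (0.554), and those closest to Rims2 were Cep112 (0.551), Naa16 (0.539) and Map4k4 (0.536). For Rimbp2 they were Zfr (0.486), Firre (0.415) and Otof, and for Erc1 Xkr6 (0.480), Hecw1 (0.431) and Sart1 (0.425). For Pclo they were Tmem214 (0.424), Sfi1 (0.400) and Ints6l (0.397), and for Bsn Anks1b (0.424), Kcnab1 (0.405) and Dtd1 (0.395). For Ctbp2 the highest were Kat7 (0.372), Trim24 (0.368) and Macrod1 (0.367). Those of Rims1, Klf4 (0.412), Mettl8 (0.396) and Tor2a (0.366), rest on 3 cells with a read. Klf4, Mettl8, Tor2a, Id3, Cep112, Anks1b and Macrod1 had medians of 0 CPM, and Xkr6 one of 0.0407 CPM. Hecw1 (0.533 CPM), Sfi1 (0.658), Kat7 (3.82) and Trim24 (9.45) also had medians under the threshold of 10 CPM. The values of all these genes thus rest on part of the cells. Corrected for the mitochondrial share, Pdcd6 stood at 0.481 with Erc2 and Cep112 at 0.455 with Rims2.

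Against the mean rank of all 8 genes, with which Rims2 (0.652) and Erc2 (0.608) themselves had the highest correlations, the genes outside the set that stood highest were Pdcd6 (0.550), Acaca (0.549), Ripor3 (0.540), Osbpl6 (0.533) and Nbeal1 (0.523). Atad2b (0.520), Sirt7 (0.508), Malat1 (0.4998), Cep112 (0.499) and Ccdc112 (0.486) followed. Cep112 and Ccdc112 had medians of 0 CPM, and Acaca one of 0.146 CPM. The lowest were Sri (-0.583), Kcnj13 (-0.574), Rpl37 (-0.552), Ndfip1 (-0.547) and Atp6v0e (-0.546). Corrected for the mitochondrial share, Sri stood at -0.480 and Pdcd6 at 0.443. Each is a rank correlation over the same 73 cells.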

How the data were processed

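Smart-Seq HT gave full-length cDNA of each cell, which was tagmented, per the labels' protocols. Build mm10 and featureCounts 2.0.1, HISAT2 2.2.1 and StringTie 2.2.1 are named, per the submitters' processing notes, without roles or settings. The sources used here give no annotation release. The values are raw counts of reads per gene in each cell, as deposited, without molecular identifiers, so they include PCR copies. The reporter row WPRE (0.0161% of counts) was left out of totals. No pair among 2628 pairs of libraries was identical.

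Libraries held 11027945 to 37183702 counts and were scaled to CPM by total. Intervals on shares of cells are exact 95% Clopper-Pearson intervals. Spearman correlations used 73 cells, and correction means ranks with a linear fit on the ranks of a library property removed. Genes with a mean of 10 CPM formed the comparison. No test was made, since the cells are 1 group with no named animal. Positions and exon lengths are from GENCODE vM21, promoters from RefSeq GRCm38.p6. The correlation step was tested on simulated data.

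The members and lists were chosen with earlier results of these data known, among them the values of Erc2 and Rims2 with Slc26a5. Named are the members, the listed active zone genes, the 3 genes closest to each member, and the 10 highest and 5 lowest for their mean rank, leaving out mitochondrial genes, pseudogenes and genes without an official name. Hair cell, neuron and glia markers come from lists. Of the lists of other cells, no marker of supporting cells, mesenchyme, immune cells, blood or endothelium was detected in 37 or more cells, and their median summed levels were 0, 0.280, 0.159, 0 and 0 CPM. Alternatives covered scaling (scran 1.30.0 in R 4.3.3), correlation measure, corrections, depth and subsets of cells. Scripts ran in Python 3.11.15 with scipy 1.17.1, pandas 2.3.3, numpy 2.4.6 and matplotlib 3.10.9.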

Additional observations from a re-analysis of the deposited data

How the results depend on the processing

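Each correlation of a scaffold with Slc26a5 or Atp2a3, and of Rims2 with Erc2, was recomputed under 13 settings, of which correction for the ribosomal protein share and joint correction for mitochondrial share, total count and genes with a count were chosen after seeing the data, as was the median without Rims1 (-0.238 with Slc26a5 and 0.219 with Atp2a3). Of 221 values, 188 moved by less than 0.1, 33 moved by more and 10 had the other sign. Those 10 were values of Rimbp2 and Pclo with both genes and of Ctbp2, Rims1 and Erc1 with Atp2a3. Rims2 stayed between -0.545 and -0.333 with Slc26a5 and between 0.374 and 0.564 with Atp2a3. Erc2 stayed between -0.522 and -0.244 with Slc26a5 and between 0.193 and 0.490 with Atp2a3, so its place past -0.5 depended on the setting. The median over the 28 pairs lay between 0.0329 and 0.1075, and the median of all 8 genes with Slc26a5 between -0.246 and -0.104. The median with Atp2a3 over all 8 genes was 0.166 uncorrected and 0.00442 corrected for the ribosomal protein share; the cause was not tested. The median number of scaffolds detected per cell was 5 and fell to 3 at a threshold of 50 CPM. Genes past 0.5 in size with Slc26a5 were 191, or 202 with a mean of 1 CPM, and 1118 lay past 0.3; with Atp2a3 they were 215, 228 and 1176. Depth limits the low end: 1 count is 0.0269 to 0.0907 CPM. No paired analysis was possible because the cells form 1 group.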

Other observations

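The liprin-alpha genes, whose products bind RIM and ELKS proteins, did not share a direction over the cells. Ppfia1, Ppfia3 and Ppfia4 were detected in 57, 49 and 57 cells and had rank correlations of -0.291, -0.318 and -0.307 with Slc26a5. Ppfia2 was detected in 9 cells, with a maximum of 111 CPM and a median of 0, and stood at 0.447 with Slc26a5 and -0.488 with Atp2a3. Corrected for the mitochondrial share, Ppfia1, Ppfia3 and Ppfia4 stood at -0.276, -0.139 and -0.192 with Slc26a5. Ppfia2 then stood at 0.408 with Slc26a5 and -0.457 with Atp2a3. Its mean was under 10 CPM, so it was left out of the counts above, and 57 of the 73 cells had no read of it. With Erc2 it stood at -0.390 and with Rims2 at -0.281. The difference between the liprin genes was seen in the values and not tested.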
